A study of Mus musculus with 4 samples.

Results

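The AP-1 family was described here by 10 named genes, Fos, Fosb, Fosl1, Fosl2, Jun, Junb, Jund, Atf3, Batf and Jdp2, among 22180 genes that had a probe set annotated with a single gene symbol. Where a gene had several such probe sets the brightest on average was used, and 9 of the 10 genes had at least 1. Fosl1 lay only on a probe set that also carries another gene's symbol and is given no value. All 9 had a mean above the filter on low values (a log2 value of 2.91, the 40th percentile of all probe sets) and were among the 14652 genes tested. The arrays measured RNA of dendritic cells grown from bone marrow of C57BL/6 mice and harvested on day 7. In the sulforaphane group (n = 2) the cells had been given 0.3 µM sulforaphane in DMSO for 2 h. Sulforaphane is a plant isothiocyanate and a known activator of the transcription factor NRF2. In the DMSO group (n = 2) they had been kept in the solvent alone, and both groups then received 100 ng/ml E. coli lipopolysaccharide (LPS), a ligand of the receptor TLR4, for 1 h. No array without LPS was analysed here, so the values do not show which of these genes LPS had induced. The labels do not say whether replicates came from separate mice or cultures, and p-values then measure only the spread between these samples.

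AP-1 is a dimer of basic leucine zipper (bZIP) proteins. Jun proteins pair with each other or with Fos proteins, which do not form stable dimers among themselves, and the dimers bind the element TGAGTCA, while pairs with ATF proteins prefer the related element TGACGTCA. TLR4 signals through MAP kinases that phosphorylate Jun and the activators of Fos transcription, and Fos, Fosb, Jun, Junb and Atf3 are classic immediate early genes, transcribed without new protein synthesis. In dendritic cells Batf can also join Jun proteins and IRF4 or IRF8 on composite elements.

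The promoters of the genes with the largest and smallest differences in this comparison show what lies upstream of them. Windows of 300 bases, 250 before and 50 after an annotated transcription start, were taken from RefSeq (GRCm38.p6) for 9 of the 10 genes, and Jdp2 had 3 of the 11 windows. The windows of Fosl2 (chr5:32136222-32136521, plus strand), Fos (chr12:85473640-85473939, plus strand), Jun (chr4:95052173-95052472, minus strand) and the middle window of Jdp2 (chr12:85599166-85599465, plus strand) are written 5′ to 3′. Capitals mark overlapping matches to the NF-kB consensus in Fosl2, the cyclic AMP response element core TGACG and a TATAAA box in Fos, the element variant TGACATCA in Jun, and TGACG in Jdp2.
Fosl2: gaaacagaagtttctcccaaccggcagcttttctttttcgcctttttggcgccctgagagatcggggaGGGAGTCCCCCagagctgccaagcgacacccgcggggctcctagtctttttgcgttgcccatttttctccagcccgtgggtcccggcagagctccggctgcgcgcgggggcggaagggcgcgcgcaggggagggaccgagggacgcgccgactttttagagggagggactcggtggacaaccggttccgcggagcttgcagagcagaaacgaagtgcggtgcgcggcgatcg
Fos: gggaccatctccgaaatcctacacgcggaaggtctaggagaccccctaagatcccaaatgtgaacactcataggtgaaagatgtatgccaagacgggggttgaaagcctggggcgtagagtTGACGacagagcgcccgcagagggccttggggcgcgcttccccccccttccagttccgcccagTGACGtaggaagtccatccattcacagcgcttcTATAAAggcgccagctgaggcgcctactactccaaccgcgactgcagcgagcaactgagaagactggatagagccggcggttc
Jun: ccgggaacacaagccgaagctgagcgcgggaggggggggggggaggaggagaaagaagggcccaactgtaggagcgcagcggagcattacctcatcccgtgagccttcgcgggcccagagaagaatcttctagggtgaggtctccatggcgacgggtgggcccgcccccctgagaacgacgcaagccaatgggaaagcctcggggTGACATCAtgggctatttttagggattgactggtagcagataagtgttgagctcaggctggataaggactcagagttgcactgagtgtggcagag
Jdp2: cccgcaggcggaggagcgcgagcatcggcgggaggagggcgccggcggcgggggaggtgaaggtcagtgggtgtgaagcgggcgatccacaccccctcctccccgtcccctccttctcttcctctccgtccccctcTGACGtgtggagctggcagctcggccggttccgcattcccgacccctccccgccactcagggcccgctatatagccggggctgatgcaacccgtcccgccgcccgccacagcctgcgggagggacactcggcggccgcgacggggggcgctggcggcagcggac
Both strands were searched. The core TGACG was in 6 of the 11 windows and in 20.8% of all 32851 windows, and it is contained in TGACGTCA, which none of the 11 held (1.79% of all). The NF-kB consensus matched in 4 of the 11 windows, those of Fosl2, Fosb and Fos and 1 of Jdp2, and in 8.46% of all. TGACATCA was found in the Jun window alone among the 11 (3.62% of all). A further variant, TTACGTCA, was found in the Atf3 window alone (0.499% of all). It contains the TGACG match of that window, read on the other strand, so the same letters enter both counts. TATAAA was in 2 of the 11 windows, those of Fos and Junb, and in 13.6% of all. None of the 11 held the AP-1 element TGAGTCA (5.2% of all), the CArG box bound by SRF (1.63%) or TGACNNNGC, the core of the antioxidant response element bound by NRF2 (12.4%). The motifs were chosen after the windows were read. A share among the 11 windows above that of all windows therefore follows in part from that choice. A match is a run of letters and was not tested as a binding site. Sequence farther than 250 bases before or 50 bases after a start was not searched. An element absent from a window can therefore still lie outside it. Fos, Jdp2 and Batf are neighbours within 235 kb of chromosome 12, and Junb and Jund both lie on chromosome 8.

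Array-wide values set the scale for these comparisons. The median log2 value of the arrays lay between 3.24 and 3.27, and DMSO replicate 1 stood apart by a narrower spread, with an interquartile range of 3.41 against 3.61 to 3.62 on the other 3 arrays. Over the genes tested, the standard deviation of the difference between 2 arrays was 0.261 for the DMSO replicates and 0.209 for the sulforaphane replicates. Between a sulforaphane and a DMSO array it was 0.266 to 0.317, so the DMSO replicates lay nearly as far apart as the groups. Of 15 listed dendritic cell markers, 14 had a value and all 14 of these passed the filter, among them Itgax (CD11c) at 11.33 and 11.32 in sulforaphane cells and 11.26 and 11.26 in DMSO cells. So did 11 of 13 macrophage and 10 of 10 neutrophil markers, while of the T and NK cell list Cd3d, Cd3g, Ncr1 and Klrb1c lay below it. Over the markers that passed, the mean log2 level of the dendritic cell list was 8.71 and 8.75 in sulforaphane cells and 8.86 and 8.97 in DMSO cells, and that of macrophage markers 9.27 and 9.26 in sulforaphane cells and 9.32 and 9.38 in DMSO cells. Neutrophil markers averaged 9.54 and 9.42 in sulforaphane cells and 9.29 and 9.57 in DMSO cells. Mast cell and basophil markers averaged 7.02 and 7.16 in sulforaphane cells and 7.31 and 7.24 in DMSO cells. B cell markers averaged 4.08 and 4.47 in sulforaphane cells and 4.48 and 4.57 in DMSO cells, and T and NK cell markers 3.97 and 3.97 in sulforaphane cells and 4.11 and 4.01 in DMSO cells. The averages of all these lists but the neutrophil one were lower in sulforaphane cells without overlap between the groups. Of single genes tested, 19.5% were lower without overlap. An average can rest on few genes, and the median differences were -0.06 for macrophage and -0.07 for mast cell and basophil markers. In the latter list Hdc lay at -0.61 and Gata2 at -0.57, but Mcpt8 at -0.07. Medians were -0.10 for dendritic cell, -0.27 for B cell and -0.13 for T and NK cell markers. The part of these lists in the AP-1 values was not tested. In the B cell and the T and NK cell lists several markers lay near the filter value of 2.91. Blk had 2.80 and 2.98 in sulforaphane cells and 3.36 and 3.24 in DMSO cells. Cd3e had 3.01 and 2.85 in sulforaphane cells and 3.05 and 3.24 in DMSO cells. Ms4a1 of the B cell list lay below the filter, while Ighm and Nkg7 lay well above it. Within the dendritic cell list 7 markers lay above 0 and 7 below it, the lowest being Irf4 at -0.87, Batf3 at -0.64, Ciita at -0.46 and Flt3 at -0.42, while H2-Ab1 lay at 0.26 and H2-Aa at 0.16. In bulk RNA, fewer cells of a type and less RNA per cell cannot be told apart.

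Sulforaphane cells and DMSO cells differed most in Fosl2 among the 9 AP-1 genes, while the estimates for the other 8, Jun, Junb, Jund and Fos among them, were at most 1.28-fold. By limma with Benjamini-Hochberg adjustment over all 14652 genes, 0 of the 9 passed the threshold of 0.05, where 19 genes (0.130% of those tested) did. At an unadjusted p under 0.05 there were 2 of the 9, Fosl2 and Jdp2, against 13.0% of all genes tested. Differences are sulforaphane minus DMSO on the log2 scale with moderated standard errors (SE), and an interval covers 95%. The smallest two-sided p that an exact permutation test allows with this design is 0.33, the value of every AP-1 gene whose groups did not overlap.

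**Figure D1:**
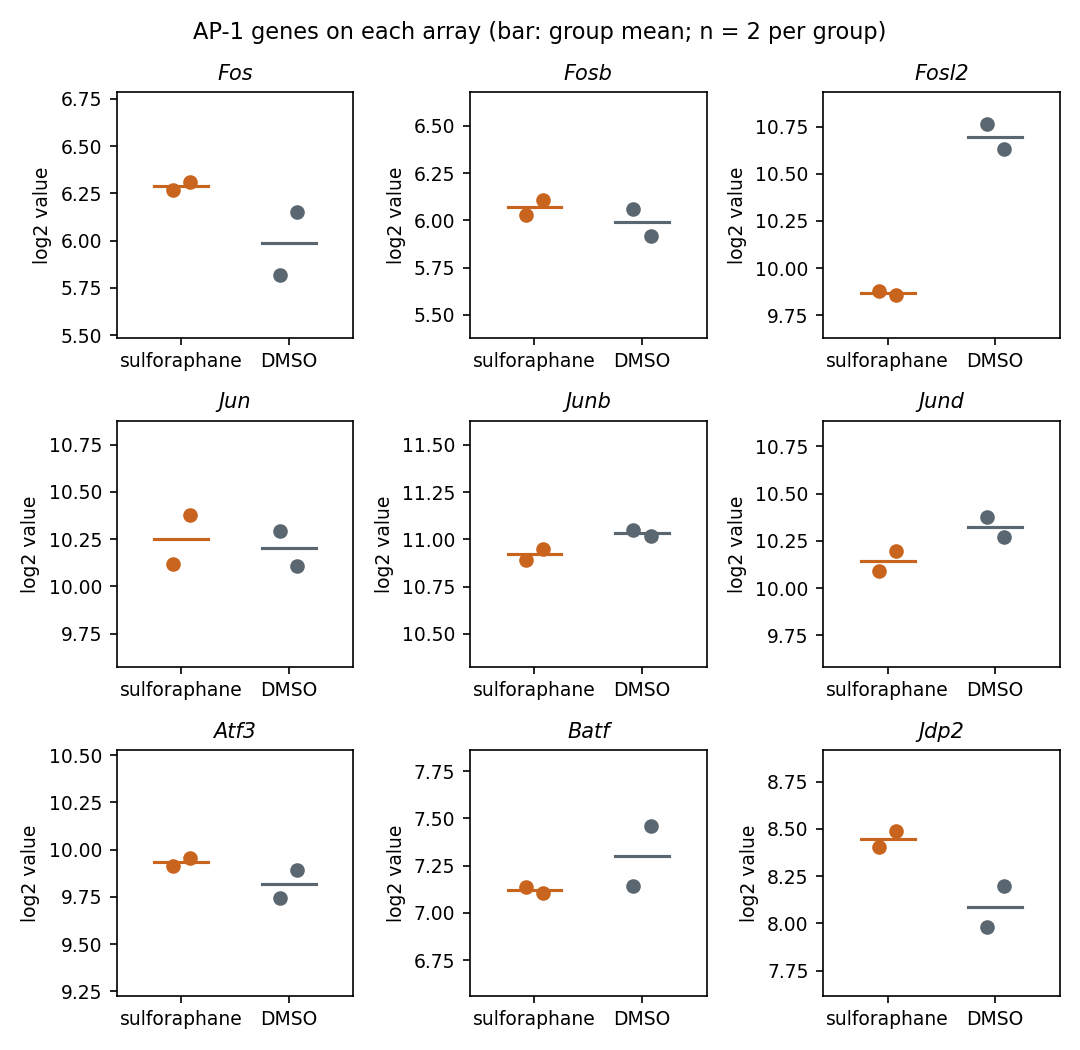
Log2 values of the 9 AP-1 genes on each array (y axis), with sulforaphane arrays left and DMSO arrays right, replicate 1 to the left of replicate 2 and a bar at each group mean; every panel spans the same range of log2 units. Fosl2 shows the widest gap between the groups, and Jun and Fosb overlap.

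Among the Fos proteins, Fosl2 (Fra-2), which pairs with Jun proteins but lacks the strong activation domain of Fos, had log2 values of 9.88 and 9.86 in sulforaphane cells and 10.76 and 10.63 in DMSO cells. Both sulforaphane arrays were lower than both DMSO arrays, and the gap between the groups was several times that between replicates. The difference was -0.83 ± 0.11 SE (interval -1.10 to -0.56, 1.78-fold lower, n = 2 per group), with an unadjusted p of 0.000293 and an adjusted p of 0.0581 by limma, just above the threshold. Fosl2 passed it under the stricter filter at the 60th percentile (adjusted p = 0.0313 by limma), a second quantile normalization (0.0422), an intensity trend in the variance (0.0047) and centring on the median of the genes tested (0.0317), and not under the other settings tried. These settings passed more genes in general, from 106 to 249 of all genes tested, and Bach1, Irf4, Ccl4, Hmox1, Myc, Egr3, Oas2, P2ry13 and Pdgfb, which are described further on, likewise passed under all 4 of them and not in the fit reported here. Oas2, P2ry13 and Pdgfb were picked for a pattern like that of Fosl2. That they passed with it follows in part from that choice. Fosl2 was the only AP-1 gene lower by at least 1.5-fold without overlap, a mark that 1.49% of all genes tested reached.

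Fos, the founding member and a short-lived activator, had 6.27 and 6.31 in sulforaphane cells and 5.82 and 6.15 in DMSO cells. Both sulforaphane arrays were above both DMSO arrays, but the DMSO replicates lay 0.33 apart, more than the difference of 0.30 ± 0.14 SE (interval -0.04 to 0.65, adjusted p = 0.447 by limma). Fosb, a close relative of Fos, had 6.03 and 6.11 in sulforaphane cells and 6.06 and 5.92 in DMSO cells. Its groups overlapped, and the difference was 0.08 ± 0.11 SE (interval -0.20 to 0.36, adjusted p = 0.838 by limma).

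Among the Jun proteins, which are the obligate partners of Fos proteins, Jun had 10.12 and 10.38 in sulforaphane cells and 10.29 and 10.11 in DMSO cells. The groups overlapped, with a difference of 0.05 ± 0.14 SE (interval -0.29 to 0.39, adjusted p = 0.927 by limma). Junb, a weaker activator than Jun that can oppose it, had 10.89 and 10.95 in sulforaphane cells and 11.05 and 11.01 in DMSO cells. Its sulforaphane arrays were the lower ones, by -0.11 ± 0.11 SE (interval -0.37 to 0.15, adjusted p = 0.734 by limma). Jund, the Jun protein most cells make constitutively, had 10.09 and 10.20 in sulforaphane cells and 10.38 and 10.27 in DMSO cells. The groups did not overlap, with a difference of -0.18 ± 0.11 SE (interval -0.46 to 0.10, adjusted p = 0.574 by limma). A dimmer Jund probe set went the other way, with 6.20 and 6.76 in sulforaphane cells and 6.28 and 6.42 in DMSO cells, a difference of 0.13 (interval -0.34 to 0.61) in which the groups overlapped. The probe sets of Jund therefore disagreed in sign, and neither interval excluded 0.

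Among the partners and inhibitors, Jdp2, a Jun dimerization protein that represses AP-1 sites, had 8.41 and 8.49 in sulforaphane cells and 7.98 and 8.19 in DMSO cells. Both sulforaphane arrays were higher, by 0.36 ± 0.12 SE (interval 0.06 to 0.66, 1.28-fold), with an unadjusted p of 0.0267 that did not pass adjustment (0.313 by limma). Atf3, a stress-inducible factor that in mouse macrophages restrains cytokine genes induced through TLR4, had 9.92 and 9.96 in sulforaphane cells and 9.75 and 9.89 in DMSO cells. The higher DMSO array lay close to the sulforaphane arrays, and the difference was 0.12 ± 0.11 SE (interval -0.16 to 0.39, adjusted p = 0.739 by limma). Batf, which lacks an activation domain of its own and acts through Jun and IRF partners, had 7.14 and 7.11 in sulforaphane cells and 7.14 and 7.46 in DMSO cells. Sulforaphane replicate 1 and DMSO replicate 1 were nearly equal, and the difference of -0.18 ± 0.14 SE (interval -0.52 to 0.16, adjusted p = 0.662 by limma) rested on DMSO replicate 2, which stood above the other 3 arrays. Of the 3 neighbours on chromosome 12, Fos and Jdp2 thus lay above 0 and Batf below it.

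**Figure D2:**
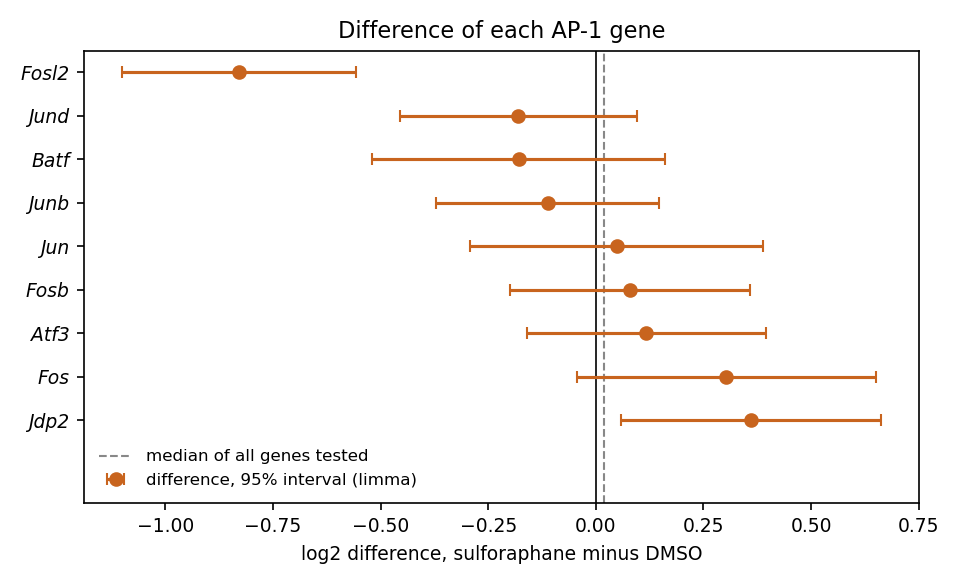
Log2 difference between sulforaphane and DMSO for each of the 9 AP-1 genes (points) with its 95% interval from limma (bars); the dashed line is the median of all genes tested. The intervals of Fosl2 (below 0) and Jdp2 (above 0) leave out 0, and the other 7 include it.

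Counted over the family, 7 of the 9 genes had groups that did not overlap, as did 43.6% of all genes tested. Of the 9, 4 genes were lower without overlap between the groups (19.5% of all genes tested) and 3 were higher (24.0% of all). The 4 were Fosl2, Junb, Jund and Batf, and the 3 were Fos, Atf3 and Jdp2. With each array centred on its median, 3 were lower and 4 higher without overlap (16.9% and 26.9% of all genes tested). With the mean of probe sets, 3 were lower and 3 higher (19.4% and 24.2%). The median difference of the 9 was 0.05 against 0.02 for all genes tested, and it was the value of Jun itself. With single arrays left out this median ran from -0.08 to 0.12, with the lowest value without sulforaphane replicate 2. Centring on the median of the genes tested turned Jun to -0.014, and a second quantile normalization turned Fosb to -0.0018.

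**Figure D3:**
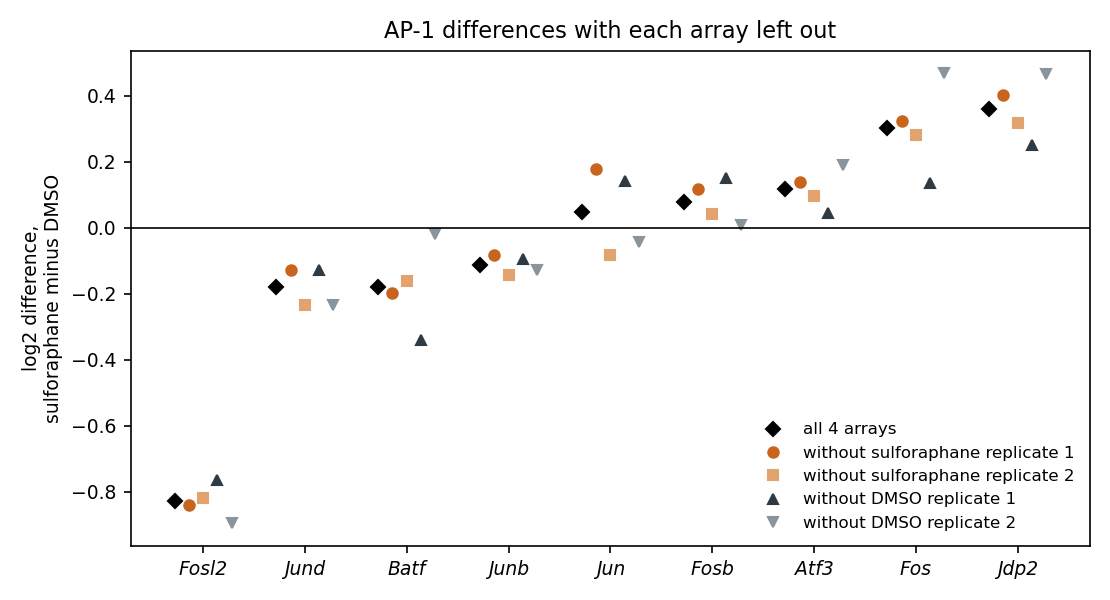
Log2 difference between sulforaphane and DMSO for each AP-1 gene (y axis) with all 4 arrays and with each array left out (symbols). Fosl2 stays between -0.89 and -0.76, while Jun crosses 0.

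The direction of Fosl2 was the same with any array left out, at -0.76 without DMSO replicate 1 and -0.89 without DMSO replicate 2. Its adjusted p was then 0.0951 or higher, with 1 residual degree of freedom left, and in those fits, of 14618 to 14719 genes, 0 genes passed. Fos and Jdp2 varied more with the DMSO arrays: Fos differed by 0.14 without DMSO replicate 1 and by 0.47 without DMSO replicate 2, and Jdp2 by 0.25 and 0.47. Batf differed by -0.34 without DMSO replicate 1 and by -0.02 without DMSO replicate 2. Jun lay at 0.18 without sulforaphane replicate 1 and at -0.08 without sulforaphane replicate 2.

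Log ratios of Fosl2 to the other 8 AP-1 genes on the same array leave out any constant shift between arrays, though not a rescaling that depends on the level. Fosl2 was put on top of these ratios because it had the largest difference, so that they were lower in sulforaphane cells follows from that choice, and they are given as a description with no test. The differences ran from -0.65 relative to Jund to -1.19 relative to Jdp2, with -0.88 relative to Jun, -0.72 relative to Junb and -1.13 relative to Fos.

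Genes whose pattern over the 4 arrays was most like that of Fosl2 were Oas2, an interferon-inducible RNA sensor, the orphan receptor Gpr27, the ADP receptor P2ry13 and Pdgfb, a growth factor chain. Likeness was the root mean square distance after each gene was centred on its own mean, and it was 0.031, 0.034, 0.043 and 0.047 in that order over 4 arrays. Their differences were -0.87, -0.85, -0.85 and -0.87, and none of them passed the threshold over all genes (lowest adjusted p 0.0565 by limma, for Pdgfb). They were picked on these same values, so differences close to that of Fosl2 follow from the choice. Gpr27 was dim, at 3.21 and 3.09 in sulforaphane cells, near the filter value of 2.91, and 4.06 and 3.94 in DMSO cells.

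Relatives of AP-1 with a bZIP domain differed in both directions. Of 33 tested, 0 passed the limma threshold (10 at an unadjusted p under 0.05, against 13.0% of all genes tested), 12 were higher and 9 lower without overlap (24.0% and 19.5% of all genes tested), and the median was 0.02. Bach1, a repressor that competes with NRF2 for antioxidant elements, had 10.18 and 10.05 in sulforaphane cells and 9.22 and 9.41 in DMSO cells, a difference of 0.80 ± 0.12 SE (adjusted p = 0.0806 by limma). Bach1 passed under the same 4 settings as Fosl2. Mafg, a small MAF partner of NRF2 and BACH1, differed by 0.66 ± 0.12 SE (adjusted p = 0.118 by limma), and Atf4, the effector of the integrated stress response, by 0.47 (0.165). Batf3, the Batf relative required for cross-presenting dendritic cells, had 6.54 and 6.67 in sulforaphane cells and 7.13 and 7.35 in DMSO cells, a difference of -0.64 ± 0.13 SE (adjusted p = 0.14 by limma). Batf3 is also among the dendritic cell markers whose levels are given above.

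Kinases and adaptors listed for the JNK, p38 and ERK cascades differed little. Of 33 genes tested, 0 passed the limma threshold and 1 had an unadjusted p under 0.05 (13.0% of all genes tested did). Without overlap, 10 were higher and 5 lower (24.0% and 19.5% of all genes tested). All differences lay between -0.28 and 0.30, with a median of 0.04. The kinase Mapkapk3, a substrate of p38, differed by -0.28 and Map3k14 (NIK), the kinase of the alternative NF-kB pathway, by 0.30, and the kinases Map2k5 and Map2k3 by 0.25 and 0.28. Phosphorylation, the step at which these kinases act, was not measured.

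Activators of Fos transcription and regulators of AP-1 protein and mRNA turnover gave 0 genes past the limma threshold as well. Of 14 SRF, ternary complex and CREB genes (2 at an unadjusted p under 0.05, against 13.0% of all genes tested), 6 were lower and 1 higher without overlap (19.5% and 24.0% of all), with a median of -0.02. Elk3, a ternary complex factor that can repress Fos, had 7.45 and 7.57 in sulforaphane cells and 8.09 and 8.11 in DMSO cells, a difference of -0.59 ± 0.11 SE (adjusted p = 0.115 by limma). Srf, the serum response factor that binds the CArG box, had 8.40 and 8.59 in sulforaphane cells and 8.89 and 9.08 in DMSO cells, a difference of -0.49 ± 0.13 SE (adjusted p = 0.216 by limma), while Creb1 differed by -0.24 and Mef2c by -0.20. Of 17 turnover genes (1 at an unadjusted p under 0.05, against 13.0% of all genes tested), 5 were higher and 4 lower without overlap, close to the 24.0% and 19.5% of all. Zfp36l1, which destabilises AU-rich mRNAs, differed by -0.52 (adjusted p = 0.15 by limma). Fbxw7, a ubiquitin ligase subunit that targets Jun, differed by 0.21, the deadenylase Cnot7 by 0.17 and the kinase Gsk3b by 0.17.

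Among 19 DNA-binding partners outside the bZIP group, 0 passed the limma threshold (3 at an unadjusted p under 0.05, against 13.0% of all genes tested), with 6 higher and 7 lower without overlap (24.0% and 19.5% of all). Irf4, which binds composite elements with Batf and Jun, had 9.24 and 9.17 in sulforaphane cells and 10.05 and 10.10 in DMSO cells. Its groups did not overlap, and the difference of -0.87 ± 0.11 SE had an adjusted p of 0.0565 by limma. Nfatc2, an NFAT protein that binds beside AP-1 at cytokine promoters, had 7.29 and 7.22 in sulforaphane cells and 7.98 and 7.93 in DMSO cells, a difference of -0.70 ± 0.11 SE (adjusted p = 0.0791 by limma). Tgif1 differed by 0.31 and Runx1 by -0.28. Irf4 is also a dendritic cell marker, and it passed the threshold under the same 4 settings as Fosl2.

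Genes known from the literature as AP-1 targets were mostly below 0. Of 43 tested, 32 lay below 0 and 11 above, where 6714 of all 14652 genes tested lay below 0. Of the 43, 23 were lower and 5 higher without overlap (19.5% and 24.0% of all), and the median was -0.21 (0.02 for all genes tested). F3 and Il12b passed the limma threshold, both lower, and 0 targets passed it as higher. F3 (tissue factor) had 5.20 and 5.43 in sulforaphane cells, against 7.50 and 7.62 in DMSO cells. Il12b, a chain common to both IL-12 and IL-23, had 8.55 and 8.63 in sulforaphane cells, against 9.95 and 9.86 in DMSO cells. The differences of F3 and Il12b were -2.25 ± 0.13 SE (adjusted p = 0.0136 by limma) and -1.32 ± 0.11 SE (adjusted p = 0.0326 by limma). The chemokine gene Ccl4 differed by -0.98 and the heme oxygenase gene Hmox1, also an NRF2 target, by 1.03 (adjusted p = 0.051 by limma for both). These targets answer to NF-kB and other factors too, the list was drawn up with earlier results known, and its direction is not independent evidence. The median ran from -0.27 to -0.13 with single arrays left out. Without any 1 array neither gene had a call, and the lowest adjusted p by limma was then 0.0631 for F3 and 0.0894 for Il12b. The number past the threshold was 9 under centring on the genes tested, 9 under the stricter filter and 12 with an intensity trend.

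Immediate early genes outside the AP-1 family were set beside it. All arrays had 1 h of LPS, so the timing of these genes was not observed. Of 34 tested, 22 lay below 0 and 12 above, where 6714 of all 14652 genes tested lay below 0. Of the 34, 17 were lower and 7 higher without overlap (19.5% and 24.0% of all), and the median was -0.11. The orphan nuclear receptor Nr4a1 had 7.59 and 7.73 in sulforaphane cells, against 9.05 and 9.21 in DMSO cells (-1.47 ± 0.12 SE, adjusted p = 0.0322 by limma). Dusp2, a phosphatase of MAP kinases, had 5.25 and 5.28 in sulforaphane cells, against 6.44 and 6.43 in DMSO cells (-1.17 ± 0.10 SE, adjusted p = 0.0326 by limma). Myc differed by -1.01 and Egr3 by -1.15 (adjusted p = 0.051 by limma for both). Neither Nr4a1 nor Dusp2 had a call with any 1 array left out, when the lowest adjusted p by limma was 0.0902 and 0.0951. Dusp2 also lost its call with the replicate number as a block (adjusted p = 0.0596 by limma), as did Il12b (0.051). The difference of these immediate early genes from Fos, Jun and Atf3 was not tested. Their list, too, was drawn up with earlier results known, and its direction is not independent evidence.

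**Figure D4:**
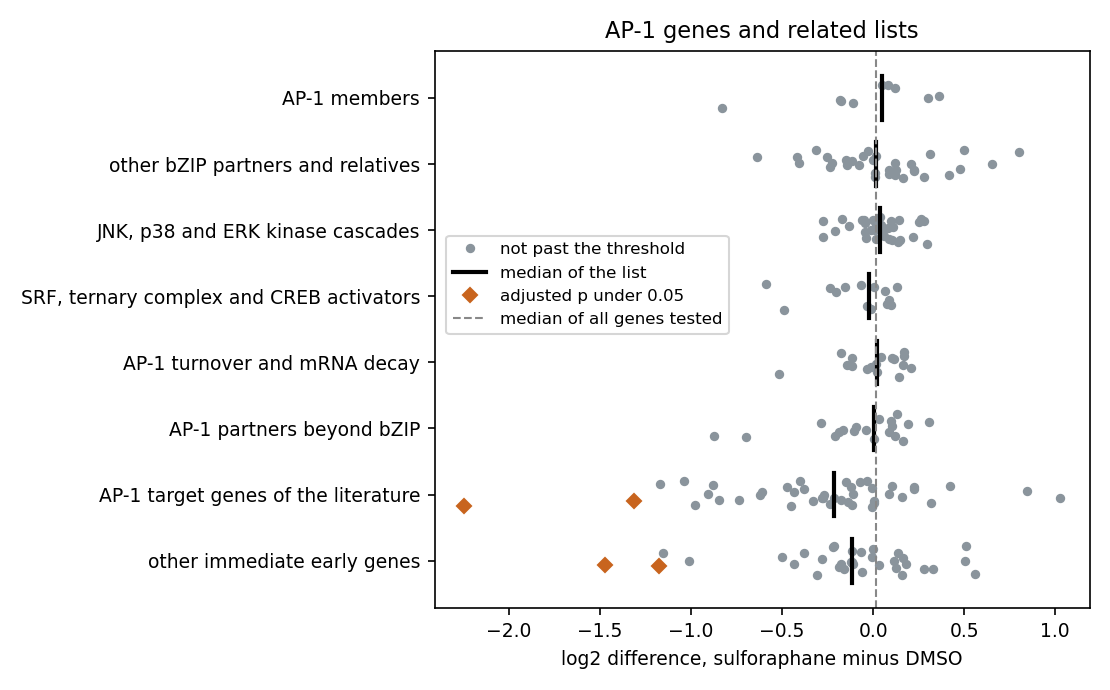
Log2 difference between sulforaphane and DMSO of each tested gene (points) in the AP-1 family and 7 related lists, with the median of each list (black bar) and of all genes tested (dashed line); diamonds are genes with an adjusted p under 0.05 by limma. The 4 diamonds lie below 0, in the target and immediate early lists, at -2.25, -1.32, -1.47 and -1.17.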

How the data were processed

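Biotin-labelled cRNA from 100 ng of total RNA of 4 samples was hybridised to Affymetrix arrays, per the labels' protocols. The authors deposited log2 values. Per the submitters' processing notes the tools were RMA and R 2.15.1. Base 2 is not stated but inferred, as RMA gives log2 output and the values span that range, and every fold rests on it. RMA subtracts background, makes the arrays' distributions alike and summarises probes, which can shrink differences of dim genes. The deposited values of DMSO replicate 1 still had the narrower spread given above. Of 41345 probe sets, 23521 had 1 symbol in the platform annotation, 1814 several and 16010 were not listed. The number of arrays limits the precision. The fit used limma 3.58.1 in R 4.3.3 without a replicate block, with 2 residual and 4.02 prior degrees of freedom per gene, and was tested on simulated data. Same-numbered replicates did not deviate together (correlation over genes -0.081). This cannot show whether they shared a culture or a day, which the labels do not say. The AP-1 genes, lists, tests and settings were chosen with earlier results of these data known. Every AP-1 gene, each Jund probe set, up to 4 genes per related list by smallest p and the 4 genes closest to Fosl2 are named. Motifs were chosen after the windows were read. The alternatives were filters, scalings, probe set choices, a replicate block, variance estimates and each array left out.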

Additional observations from a re-analysis of the deposited data

How the results depend on the processing

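The number of genes past the threshold over all genes, 19 here, was 138 with the stricter filter (10584 genes tested), 106 with a second quantile normalization, 34 with the mean of probe sets, 249 with an intensity trend, 143 with centring on the median of the genes tested (chosen after seeing the data) and 0 with any array left out. With the replicate block it was 8. The cause was not tested, except that fewer genes and fewer arrays entered some of these fits. The split of 9 higher and 10 lower became 34 and 72 with the second quantile normalization, 41 and 102 with that centring. Of the AP-1 genes 1, Fosl2, passed under the stricter filter, the second quantile normalization, the intensity trend and that centring, against 0 otherwise, and 0 with the replicate block (Fosl2 adjusted p = 0.0972 by limma). The number of AP-1 genes higher without overlap ran from 3 to 5 with an array left out, when fewer arrays make overlap rarer. Of all genes tested, 35.7% to 45.1% were then higher without overlap, against 24.0% with all arrays. The median difference of the AP-1 genes ran from -0.082 to 0.12 with an array left out. Reversed signs were Fosb at -0.0018 with the second quantile normalization, Jun at -0.014 with centring on the genes tested, and Jun between -0.082 and 0.18 with an array left out. The replicate block, besides Il12b and Dusp2, changed no other call of a named gene.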
